A study of Homo sapiens with 7 samples.

Results

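Regions bound by HNF6 on day 10 of pancreatic differentiation that the deposited peak list gives in 2 or more rows are described here. They were chosen by the number of rows with the same start and end, whose shared peak number carries a letter (a, b, c), and made up 1371 of the 64919 HNF6 regions of day 10, or 2.11%. The other 63548 regions had 1 row each. Row number thus chose the members, and the scores and widths below come from the same peak list, so they are given as a description with no test. The list holds no position for single rows, and whether each row stands for a separate summit is not stated.

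CyT49, an established human embryonic stem cell line, was differentiated in vitro, and chromatin immunoprecipitation with sequencing was done for 3 transcription factors: HNF6 at day 5 (gut tube endoderm) and day 10 (pancreatic progenitors), GATA6 at day 10 and NKX6.1 at day 13. All groups share the line and have 1 library each, so p-values were not computed and no difference was checked in replicates. The antibody label of each library matches its factor, but the shared protocol text mentions only an antibody against NKX6.1. Read depth is unknown from the peak lists, and the 3 input libraries were not analysed here.

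HNF6, the product of ONECUT1, binds DNA through a cut domain and a homeodomain and acts in the development of pancreas, bile duct and liver. GATA6 is a zinc finger factor whose loss in humans can prevent the pancreas from forming, and NKX6.1, which also has a homeodomain, marks pancreatic progenitors and later beta cells. A wide stretch of enhancer chromatin can hold several binding sites of one factor. Peak callers such as MACS2, which the submitters name, can report more than 1 summit in such a stretch, and then write 1 lettered row for each.

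Most of the regions had 2 rows (1288), and 83 had 3 rows. No region of the HNF6 day 10 list had more. The share given by several rows was 4.14% (260 of 6285 regions) in the GATA6 list, 1.09% (159 of 14627) in the NKX6.1 list and 2.0% (5 of 250) in the HNF6 list of day 5. The GATA6 list holds only part of its numbered peaks, whose numbers reach 19404, and all listed ones overlap an HNF6 region. Its share is therefore not directly comparable with the others.

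The rows of 1 region usually had unequal scores. The score is the authors' own, of unstated scale, and was used only within its list. The highest row had a median score of 241 (quartiles 100 and 587, range 16 to 3635), against a median of 78 for single-row regions. The lowest row had a median of 63 (quartiles 40 and 121, range 13 to 3137). The highest row was a median of 2.59 times the lowest (quartiles 1.53 and 6.32).

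Over all the regions, the median of the highest row was therefore well above the single-row median, and the median of the lowest row was somewhat under it. Taking the highest or lowest of several rows itself raises or lowers the value, and the size of this part was not tested. The lowest row lay under the single-row median in 787 of the 1371 regions (57.4%), while the highest row lay over it in 1126 (82.1%). In the other 584 regions (42.6%) the lowest row, and so every row, was at or over that median. Only 56 regions (4.08%) had all rows in the score range of the highest decile of the list, which starts at 393. At the weak end, 104 regions (7.59%) had all rows under 50.

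Scores were equal in 17 regions and within 1.5 times of each other in another 311. They were over 10 times apart in 227 regions (16.6%). The even and the uneven regions sat at different levels: the 17 with equal scores had a median of 49, whereas those over 10 times apart had a median highest score of 969 and a median lowest score of 45. The median ratio was 1.38 in the lowest score decile and 8.07 in the highest. No row of the list scored under 13 and the lowest decile ends at 32, so a ratio over 10 was not possible there. The contrast between even and uneven regions is thus set in part by this floor.

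**Figure D1:**
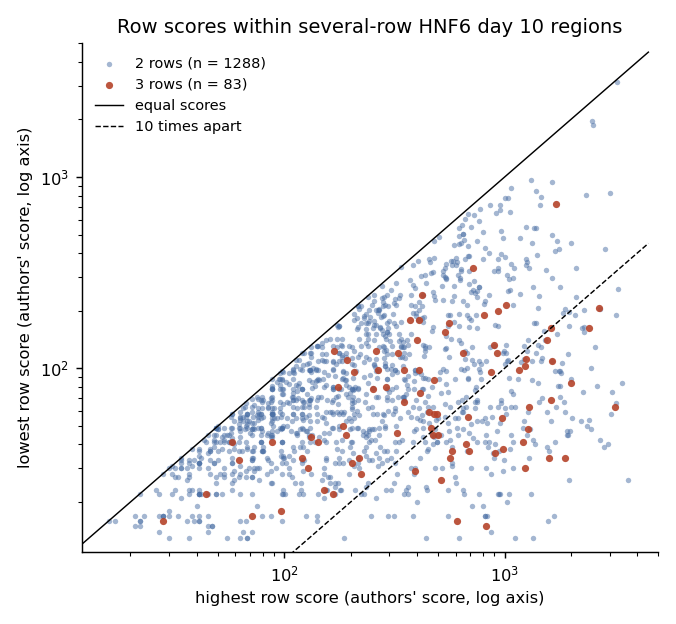
Highest against lowest row score (the authors' score, both axes logarithmic) of the 1371 HNF6 day 10 regions with several rows, 1 point per region, with 2-row regions in blue and 3-row regions in red. Points on the solid line have equal rows. Below the dashed line lie 227 regions, where the rows are over 10 times apart, with a median highest score of 969. No row is under 13, so only regions with a high row can lie there.

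Neither row letter was favoured as the stronger one. Row a was the highest in 650 of 1271 2-row regions with unequal scores, or 51.1% (Wilson 95% interval 48.4 to 53.9; such intervals cover counting error only). In the 83 regions with 3 rows, the middle letter was the highest in 27 (32.5%, 23.4 to 43.2) and the lowest in 22 (26.5%, 18.2 to 36.9). The 3-row regions had a median highest score of 480 against 230 for 2 rows, and a median ratio of 6.57 against 2.47. Their median lowest row was 59 against 63. The highest row and the ratio both tend to grow with the number of rows alone, and the size of this part was not tested.

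The strongest of the regions, at chr2:64448147-64448890 (hg19), had row scores of 26 and 3635, a ratio of 140 and the largest of all. It ranked 10 in the whole HNF6 list by its highest row. The next, at chr5:139016764-139017630, had rows of 3432 and 84. The region at chr2:148187567-148188605 followed with 261 and 3278. These examples each had 1 strong row and 1 far weaker row.

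A pair of strong rows was found at chr22:23908288-23909120, whose scores were 3234 and 3137. It was the only 1 of the 10 strongest regions with rows within 1.5 times of each other. At the other end of the scale, the strongest with equal rows lay at chr8:142510876-142511397, with 120 and 120. It ranked 22126 in the list.

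The strongest region with 3 rows, at chr5:19880508-19881846, scored 63, 280 and 3166. The one at chr8:34441142-34442270 had its strong row in the middle letter (207, 2672 and 284), and the one at chr5:122430156-122431503 had a weak row between strong ones (2014, 84 and 1261). At chr8:37159747-37160929 all rows were strong, with 719, 1593 and 1713. Rows of 3-row regions thus took several orders of strength.

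Outside the rule, the strongest single-row region of the list, at chr19:1725173-1726300, had a score of 4510 and was 1128 bp wide. The next single-row regions were at chr9:110309093-110309737 (4237, 645 bp) and chr15:71698502-71699087 (4164, 586 bp). A strong and wide region could therefore also be given as 1 row.

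The regions were wide. Their median width was 654 bp (quartiles 544 and 796, range 234 to 1637), against 259 bp for single-row regions (quartiles 208 and 326, range 177 to 1154). With 3 rows the median was 1066 bp, and with 2 rows it was 642 bp. In 94.4% of the regions the width exceeded 407 bp, the 90th percentile of single-row regions.

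Width and score rose together in the list, so widths were also set beside single-row regions of the same score decile, where decile 10 holds the highest scores. The median was 363 bp against 198 bp in decile 1, 496 bp against 236 bp in decile 5 and 813 bp against 424 bp in decile 10. The ratio of the medians lay between 1.83 and 2.20 in all 10 deciles. Regions with several rows were thus the wider ones at each level of score.

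**Figure D2:**
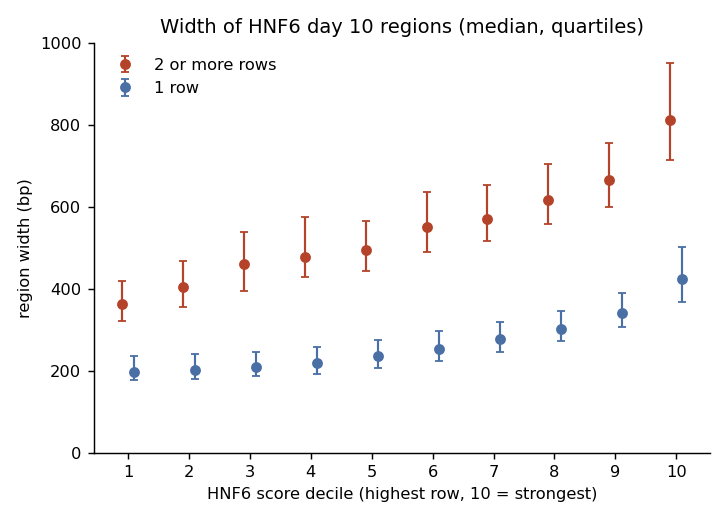
Region width in bp by HNF6 score decile (highest row; 10 is strongest), with points at the median and bars from the lower to the upper quartile, for regions of 2 or more rows (red) and 1 row (blue). The red medians run from 363 to 813 bp and the blue from 198 to 424 bp, with red above blue in each decile.

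Seen from width, several rows were rare in narrow regions and usual in the widest. They were found in 70 of 56687 regions under 400 bp (0.123%), in 443 of 6622 from 400 to under 600 bp (6.69%) and in 118 of 124 regions of 1000 bp or more (95.2%). The widest region lay at chr3:24639301-24640937, with 1637 bp and row scores of 871, 96 and 552. The next, at chr18:71210978-71212543, had 1566 bp and scores of 140, 1551 and 365. The narrowest, at chr13:105934565-105934798, was 234 bp wide with rows of 15 and 22, and none of the 5 narrowest overlapped a region of another list.

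GATA6 was listed at many of the HNF6 regions with several rows. Overlap of at least 1 bp was seen at 478 of 1371, or 34.9% (32.4 to 37.4), where the background over all HNF6 regions of day 10 was 9.66%. Single-row regions of the same score deciles gave 17.6%. The Mantel-Haenszel odds ratio over the score deciles was 2.84 (95% interval 2.50 to 3.21). The share was higher with several rows in each of the 10 deciles, from 17.9% (7.88 to 35.6) against 5.19% (4.71 to 5.72) in decile 1 up to 56.2% (51.7 to 60.6) against 33.9% (32.7 to 35.1) in decile 10.

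The GATA6 result depended on width. Within score deciles and width percentiles together, the odds ratio was 0.977 (0.819 to 1.16), and within width percentiles alone it was 0.620 (0.529 to 0.725). From 600 to under 800 bp, GATA6 was at 35.4% (31.5 to 39.6) of the regions with several rows and at 42.4% (38.6 to 46.2) of single-row regions, whose median highest score was 761 against 296. Width comes from the same peak list as the row number, and width and row number cannot be told apart as the source of the excess within score deciles. The GATA6 list gives 6285 of at least 19404 numbered peaks, all of which overlap an HNF6 region, and the choice of the listed peaks is not explained in the labels.

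NKX6.1 regions of day 13 were found at 158 of the 1371 regions, or 11.5% (9.94 to 13.3), with a background of 3.20%. Single-row regions of the same score deciles gave 5.64%, and the odds ratio was 2.24 (1.88 to 2.68). The share was higher with several rows in 9 of 10 deciles. Decile 3 was the exception, with 0 of 52 regions (upper bound 6.88%) against 1.55%. In the highest decile, it was 20.1% (16.8 to 24.0) against 10.5% (9.70 to 11.3).

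This ratio also fell when width was taken into account. It was 1.13 (0.871 to 1.46) within score deciles and width percentiles, and 0.749 (0.593 to 0.944) within width percentiles alone. With each HNF6 region trimmed to 100 bp either side of its midpoint, 5.54% had NKX6.1 and the ratio was 1.10 (0.869 to 1.40). For GATA6 the same trimming left 29.2% and a ratio of 2.18 (1.91 to 2.48). Trimming keeps only the centre of a region, so it does not separate width from the position of the partner. The width of the partner regions was not matched either, so the 2 trimmed ratios do not show which partner was the more central. The partner midpoint lay a median of 169 bp (NKX6.1) and 154 bp (GATA6) from the HNF6 midpoint at several-row regions. At single-row regions of any width the medians were 49.5 bp and 59.0 bp. These distances were not matched on width, and a wider region leaves more room for a distant partner.

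HNF6 itself had been present on day 5 at 33 of the regions, or 2.41% (1.72 to 3.36), with a background of 0.347%. Single-row regions of the same score deciles gave 0.637%, and the odds ratio was 3.90 (2.66 to 5.73). The share was higher with several rows in 5 of 10 deciles. In the other 5 no several-row region overlapped, among them decile 8, with 0 of 161 (upper bound 2.33%) against 0.334%. The ratio was 1.11 (0.644 to 1.91) within score deciles and width percentiles and 0.830 (0.511 to 1.35) within width percentiles alone. The 33 regions leave wide intervals, so a difference at matched width was not detectable with these lists.

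**Figure D3:**
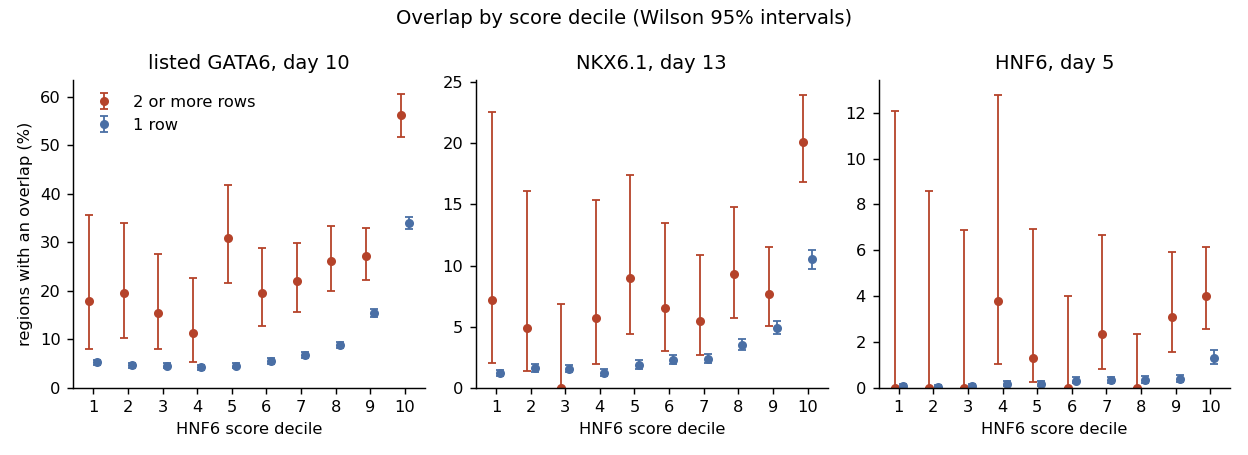
Percent of HNF6 day 10 regions that overlap a region of each other list, by HNF6 score decile (10 is strongest), for regions of 2 or more rows (red) and 1 row (blue), with Wilson 95% intervals. For GATA6 red lies above blue in all 10 deciles, up to 56.2% against 33.9%; for HNF6 of day 5 several red points are at 0.

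**Figure D4:**
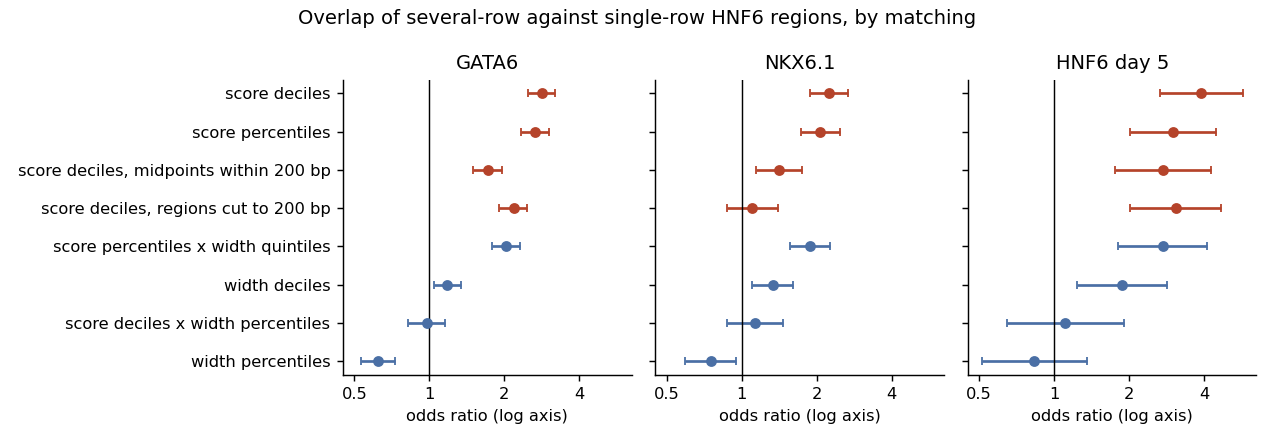
Odds ratio (log axis) of overlap for several-row against single-row HNF6 day 10 regions, with 95% intervals, under 8 ways of matching; red points are matched on score alone and blue points use width. The line marks a ratio of 1, and the points move from 2.84, 2.24 and 3.90 at the top to 0.620, 0.749 and 0.830 at the bottom.

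Both GATA6 and NKX6.1 were found at 102 of the regions, or 7.44% (6.17 to 8.95), with a background of 1.15%. Single-row regions of the same score deciles gave 2.32%, an odds ratio of 3.53 (2.82 to 4.43), which was 1.06 (0.768 to 1.47) within score deciles and width percentiles. Within width percentiles alone it was 0.692 (0.516 to 0.929), with 9.54% at single-row regions. Another 376 regions (27.4%, background 8.51%) had GATA6 without NKX6.1, and 56 (4.08%, background 2.05%) had NKX6.1 without GATA6. In all, 554 regions (40.4%, background 11.9%) overlapped at least 1 of the 3 other lists, and 817 overlapped none. These shares are not matched on score or width.

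The strongest regions with both partners lay at chr9:31578908-31579695, with HNF6 rows of 3196 and 189, and at chr5:19880508-19881846, described above. At the latter the GATA6 region was itself given by 2 rows and spanned chr5:19880769-19881710. The NKX6.1 region, at chr5:19880719-19880881, lay near its lower end. At chr4:72049927-72050786 (rows 75 and 3064) the NKX6.1 region, chr4:72050562-72050728, lay near the upper end. Partners could thus sit at either end of a wide HNF6 region.

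Of the 10 strongest regions with several rows, all 10 had a listed GATA6 region, 3 had NKX6.1 and 2 had HNF6 on day 5. These were among the highest scores of the list, where overlap was frequent whatever the row number: all 5 of the strongest single-row regions had GATA6 and 3 had NKX6.1. All 3 other lists were overlapped by 1 several-row region (0.0729%, background 0.00924%), at chr22:45402533-45403835, with rows of 162, 182 and 2411, and by 5 single-row regions. The strongest without GATA6 among those present on day 5 lay at chr14:24020246-24021185, with rows of 1954 and 2495.

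Regions with 3 rows overlapped the other lists more often than those with 2 rows. GATA6 was at 57.8% (47.1 to 67.9) against 33.4% (30.9 to 36), and NKX6.1 at 22.9% (15.2 to 33.0) against 10.8% (9.21 to 12.6). For HNF6 of day 5 the shares were 6.02% (2.60 to 13.3) and 2.17% (1.51 to 3.12), with overlapping intervals. The 3-row regions were also wider and had higher highest rows, and the part of width in these shares was not tested.

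Evenness of the rows went with no detectable difference in overlap within quartiles of the highest row score. GATA6 was at 27.1% of regions with rows within 1.5 times and at 59.0% of those over 10 times apart, but the latter also had the higher scores, with a median highest row of 969 against 96. Regions were then split at the median ratio within each quartile of the highest row. The more even regions had GATA6 at 35.9% and the less even at 33.9%, an odds ratio of 1.11 (0.873 to 1.40). For NKX6.1 the ratio was 0.969 (0.690 to 1.36), and for HNF6 of day 5 it was 0.642 (0.317 to 1.30). These intervals leave room for moderate differences in either direction. Scores still vary within a quartile, and width was not matched. The median width was 668 bp in the more even regions and 642 bp in the less even.

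Partner regions were less often central in HNF6 regions with several rows than in single-row regions. The midpoint of the GATA6 region fell in the middle 33.3% of the HNF6 region in 38.8% of 515 overlapping pairs (34.7 to 43.1), against 58.3% for single-row regions of the same width percentiles. The 515 pairs came from 478 HNF6 regions, of which 36 had 2 or more GATA6 regions, against 33 of 5791 single-row regions. Intervals treat pairs as independent, and the part of such repeated pairs in the difference was not tested. The odds ratio for GATA6 was 0.431 (0.335 to 0.556). For NKX6.1 the share was 32.3% of 164 pairs (25.6 to 39.8) against 60.3%, with an odds ratio of 0.285 (0.181 to 0.449). Within score deciles the ratios were 0.464 (0.384 to 0.561) and 0.316 (0.224 to 0.446). For HNF6 of day 5, 16 of 34 pairs (47.1%, 31.5 to 63.3) were central, against 83.3% (77.4 to 87.9) of the 192 pairs at single-row regions of any width. At several-row regions the NKX6.1 share of 32.3% was close to the 33.3% of the width that was called the middle. The GATA6 share of 38.8% was somewhat above it, with an interval that starts at 34.7. At single-row regions of like width both partners were more often in the middle. For GATA6 and NKX6.1 this difference between several-row and single-row regions was seen at matched width and at matched score, each taken separately. Matching on width and score together was not run for these positions.

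The side on which a partner lay went with the letter of the stronger row. In 2-row regions where row a was the highest, the GATA6 midpoint lay on the lower-coordinate side of the HNF6 midpoint in 58.1% of 222 pairs (51.5 to 64.4). Where row b was the highest, it did so in 35.8% of 229 pairs (29.9 to 42.2). The difference was 22.3 percentage points (Newcombe 95% interval 13.1 to 30.9). It was 38.6 points (26.2 to 49.2) where the higher row was over 3 times the other.

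The same order was seen with the other lists. For NKX6.1 the shares were 60.0% of 70 pairs and 43.1% of 72 pairs, a difference of 16.9 points (0.534 to 32.1), and 30.0 points (8.12 to 48.2) where the rows were over 3 times apart. For HNF6 of day 5 they were 11 of 15 pairs and 1 of 13 pairs, a difference of 65.6 points (29.6 to 82.6). The HNF6 region of day 5 thus lay mostly on the lower-coordinate side where row a was the stronger and on the other side where row b was. A partner midpoint may fall outside the HNF6 region, as it did in 26 of the 515 GATA6 pairs (5.05%, 3.47 to 7.29) and in 827 of 5824 pairs at the narrower single-row regions (14.2%, 13.3 to 15.1).

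**Figure D5:**
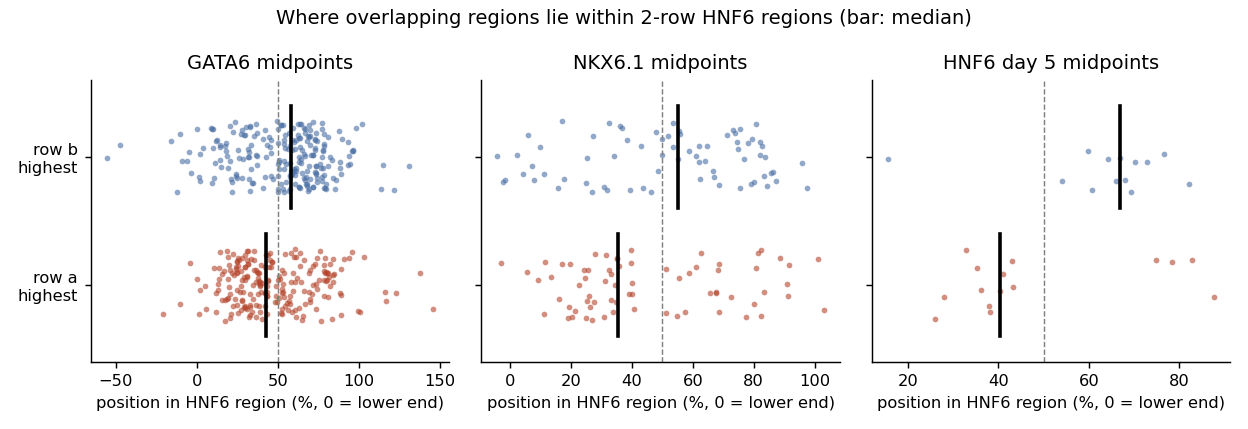
Position of the midpoint of each overlapping region along 2-row HNF6 day 10 regions, as percent of the HNF6 width (0 is the lower coordinate; values under 0 or over 100 lie outside), for regions with row a (red) or row b (blue) as the highest, 1 point per overlapping pair, spread vertically for legibility, with a bar at the median. Medians are 42.9% and 58.4% for GATA6, 35.3% and 55.2% for NKX6.1, and 40.4% and 67.0% for HNF6 of day 5.

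Some of the regions held more than 1 partner region. Among those with GATA6, 36 of 478 (7.53%, 5.49 to 10.3) overlapped 2 or more GATA6 regions, against 33 of 5791 single-row regions (0.570%, 0.406 to 0.799). At matched width percentiles the odds ratio was 1.78 (0.865 to 3.66). The largest number was 3, at chr20:30195169-30196690, which was 1522 bp wide with HNF6 rows of 999 and 33. For NKX6.1, 6 of 158 (3.80%, 1.75 to 8.04) held 2 regions, against 17 of 1918 single-row regions (0.886%), and at matched width percentiles the odds ratio was 0.837 (0.235 to 2.99).

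Several rows in HNF6 went with several rows in the other lists. Of the 478 regions with GATA6, 40 (8.37%, 6.21 to 11.2) overlapped a GATA6 region that was itself given by several rows, against 3.88% of single-row regions of the same score deciles, an odds ratio of 2.28 (1.59 to 3.25). For NKX6.1, it was 10 of 158 (6.33%, 3.47 to 11.3) against 3.13%, an odds ratio of 2.07 (1.01 to 4.23). At matched HNF6 width, with score not matched, the ratios were 1.06 (0.659 to 1.71) and 0.876 (0.303 to 2.53). Both intervals include 1, and that for NKX6.1 also includes 2.07. Neither difference was thus resolved at matched width.

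Counted from the partner lists, HNF6 regions with several rows were found at 15.0% (11.2 to 19.8) of the 260 GATA6 regions with several rows and at 7.88% (7.23 to 8.59) of the 6025 with 1 row. For NKX6.1 the shares were 6.29% (3.45 to 11.2) of 159 and 1.06% (0.910 to 1.25) of 14468. Within deciles of the partner's own score the odds ratios were 2.06 (1.44 to 2.93) and 5.50 (2.83 to 10.7). The ratios are unlike in kind, since each listed GATA6 region lies on an HNF6 region, whereas 65 of the 159 and 2032 of the 14468 NKX6.1 regions do. Among these NKX6.1 regions the shares were 15.4% (8.58 to 26.1) and 7.58% (6.51 to 8.81), an odds ratio of 2.27 (1.13 to 4.56). The width of the partner regions was not matched here.

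The day 5 list of HNF6 held 5 regions with 2 rows, all of which overlapped an HNF6 region of day 10. They are named here because they are few. At 3 of them the day 10 region also had several rows. These were chr1:1624138-1624679 (258 and 231 on day 5, 213 and 215 on day 10), chr5:137673454-137673911 (367 and 239, then 262 and 203) and chr11:129872174-129872553 (39 and 29, inside a 3-row region of 930 bp). At chr17:17140503-17140934 (346 and 43) and chr6:37786920-37787463 (84 and 52), the day 10 region had 1 row and was narrower, with 271 bp and 196 bp. Scores of different lists are on separate scales and are given only to show the rows.

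Other HNF6 regions of day 10 lay close to these regions. Another was within 10 kb, from edge to edge, of 816 of the 1371 (59.5%, 56.9 to 62.1), with a background of 49.9%. Single-row regions of the same score deciles gave 50.9%, an odds ratio of 1.41 (1.27 to 1.58). Within width percentiles the ratio was 0.865 (0.752 to 0.995), so the direction turned when regions of like width were compared. Within 1 kb, 292 (21.3%, background 13.3%) had another region, against 13.9% of single-row regions of the same score deciles and 24.3% of those of the same width percentiles. The odds ratios were 1.68 (1.47 to 1.92) and 0.872 (0.736 to 1.03).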

How the data were processed

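The authors deposited 1 peak list per library, a BED table without header in which each row has a position, a name and a whole-number score of unstated unit. MACS2 2.1.1.20160309, Bowtie2 2.3.4.1 and hg19 are the tools and build listed, with no roles or settings, per the submitters' processing notes. Rows with the same start and end were joined to 1 region, scored by its highest row. Deciles and percentiles of score and width were taken over all 64919 HNF6 regions of day 10.

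Shares of single-row regions were weighted to the members' strata. Mantel-Haenszel odds ratios with 95% intervals used statsmodels 0.14.6. Overlaps were counted in Python 3.11.15 with pandas 2.3.3, equalled those of bedtools 2.31.1, and were tested on simulated data. Figures were drawn with matplotlib 3.10.9. Intervals treat regions, or overlapping pairs where pairs were counted, as independent.

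Regions named are the 10 highest scores of all members, of those with 3 rows, with both partners and with HNF6 of day 5 (not all printed), the 5 extremes of ratio and width, and the 5 strongest single-row regions. Members and rules were chosen with earlier results of these data known. Genes near the regions and their sequences were planned and not analysed here, because no annotation or sequence of hg19 was used. Coordinates are 1-based. Samples were grouped by title.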

Additional observations from a re-analysis of the deposited data

How the results depend on the processing

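All values here are odds ratios of several-row against single-row HNF6 regions. Matching on width percentiles (100 bins) was chosen after seeing the data. It turned the direction for GATA6 (0.620, interval 0.529 to 0.725), NKX6.1 (0.749, 0.593 to 0.944) and HNF6 neighbours (0.865, 0.752 to 0.995). The ratios for HNF6 of day 5 (0.830, 0.511 to 1.35) and NKX6.1 regions with several rows (0.876, 0.303 to 2.53) were also under 1. Their intervals include 1, so a turn of direction was not shown for these. GATA6 regions with several rows moved to 1.06. Score deciles by width percentiles, added likewise, gave 0.977, 1.13 and 1.11 for GATA6, NKX6.1 and HNF6 of day 5, and width deciles gave 1.18, 1.33 and 1.87. With score percentiles by width quintiles GATA6 moved to 2.03. When the lowest row scored a region the ratios were 7.21, 5.26 and 10.8, and with the mean of rows GATA6 was 3.75 and NKX6.1 2.77. Regions of 3 rows gave 5.05, 3.67 and 6.80, and rows within 1.5 times (added) gave 3.59, 1.68 and 9.39. Midpoints within 200 bp gave 1.72 for GATA6 and 1.41 for NKX6.1, and trimming gave 2.18 and 1.10. GATA6 regions above the median score gave 2.22, and without the highest score decile GATA6 was 3.22 and HNF6 of day 5 was 5.73. The cause of these shifts was not tested. Other gene assignments, promoter windows and sequence windows were not run. No paired analysis was possible because each group has 1 library. The depth of the libraries is unknown, which limits what a missing overlap shows.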

Other observations

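Of the 1371 regions with several rows, 45 (3.28%) had another such region within 10 kb, in 21 runs; no share for sets of like size was computed. The longest runs held 3 regions each and were chosen after their values were seen. They lay at chr15:53083074-53098035 (highest row scores 449, 1342 and 1258), chr17:79367310-79371925 (71, 667 and 176) and chr5:143872774-143891386 (254, 567 and 1486).

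Regions with several rows were spread over the chromosomes much as the other HNF6 regions. Of 24 chromosomes, only chromosome 5 had an interval off the value that its score deciles give, with 119 of 4733 regions, or 2.51% (2.11 to 3.0), against 2.09%. The intervals were not adjusted for the number of chromosomes, so 1 interval off its value can arise from counting error alone. Chromosome 22 had the lowest share, 1.25% (0.575 to 2.71), against 2.34% from its score deciles, which lies inside the interval.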
